A study of Ericerus pela with 8 samples.

Results

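Late-stage adult females of the white wax scale insect Ericerus pela were set against middle-stage adult females, with 1 RNA-seq library at each stage. The comparison used 2 of the 8 libraries of a series that follows both sexes through development. The remaining 6 libraries came from female first-instar larvae, female second-instar larvae, female early-stage adults, male first-instar larvae, male second-instar larvae and male adults, and their values are given beside the results. The pair was chosen by the stage in the sample titles, which name the late library as later-stage, and the labels describe both libraries as total RNA of female adults and name no treatment. The labels do not give the age of the insects in days, the number of insects in a library, the host plant or the collection, so stage cannot be told apart from any of these. Because each stage had 1 library, no difference below can be checked against replicates, and p-values were not computed.

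Adult females of scale insects do not move and feed on plant sap through one long mouthpart. In insects, yolk protein is made largely in the fat body, travels in the blood and enters the growing oocyte through a receptor on its surface, while the ovary supplies the egg with messenger RNAs, small-RNA proteins and histones. Trehalose is the main blood sugar of insects, and juvenile hormone and ecdysteroids control reproduction as well as moulting. In samples of many cell types, fewer cells of a type and less RNA per cell cannot be told apart.

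Reads were counted over unigenes, which are assembled transcript fragments. The late library held 1.86 M uniquely assigned reads and the middle library 1.46 M, where M is 1000000, and the 8 libraries ranged from 1.46 M to 2.30 M. Reads fell on 88598 unigenes in the late library and on 91781 in the middle library, of which 73324 were shared by both. Several unigenes can be pieces of 1 gene, so unigenes of a family are not independent measurements. Levels are counts per 1000000 reads (CPM). To be measured, a unigene needed at least 20 reads in either library, and it was called where log2((late CPM + 1)/(middle CPM + 1)) reached 2 or -2, the 4-fold rule. Ratios in the text are of levels with nothing added, late over middle unless written as a fold lower. The range in brackets is the 95% interval of the exact conditional binomial method, which accounts for counting error and nothing else. Where 1 library of the pair had 0 reads, 3 reads were put in its place and the ratio is written as at least that many fold. This wording is a convention and not the bound of the 95% interval, which can lie nearer 1. For Unigene143994_FOB, written as at least 6.79-fold higher, the interval began at 5.14.

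Of 27850 unigenes measured by this rule, 1084 (3.89%) were at least 4-fold higher in the late library and 1245 (4.47%) at least 4-fold lower. The median log2 ratio of all measured unigenes was 0.11. Among the 15859 measured unigenes with a protein match, 375 (2.36%) were higher and 382 (2.41%) lower, with a median log2 ratio of 0.15. These shares are the background against which the counts of each gene list are read.

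All called transcripts of the egg and germline lists were higher in the late library. Every measured vitellogenin receptor unigene was more than 4-fold higher in it, as were all 3 ovarian serine protease unigenes and all 5 bicaudal-C unigenes. Vitellogenin itself, the yolk precursor, was 2.20-fold higher over its 4 unigenes and none of the 4 was called. A part of the trehalases, sugar transporters, acyl elongases, desaturases and unigenes matched to juvenile hormone esterases was lower in the late library. So were nearly all measured sarcosine dehydrogenase and glycine cleavage unigenes, a set grouped after its values were seen. Phenoloxidases and cytochromes P450 had members called in both directions.

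**Figure D1:**
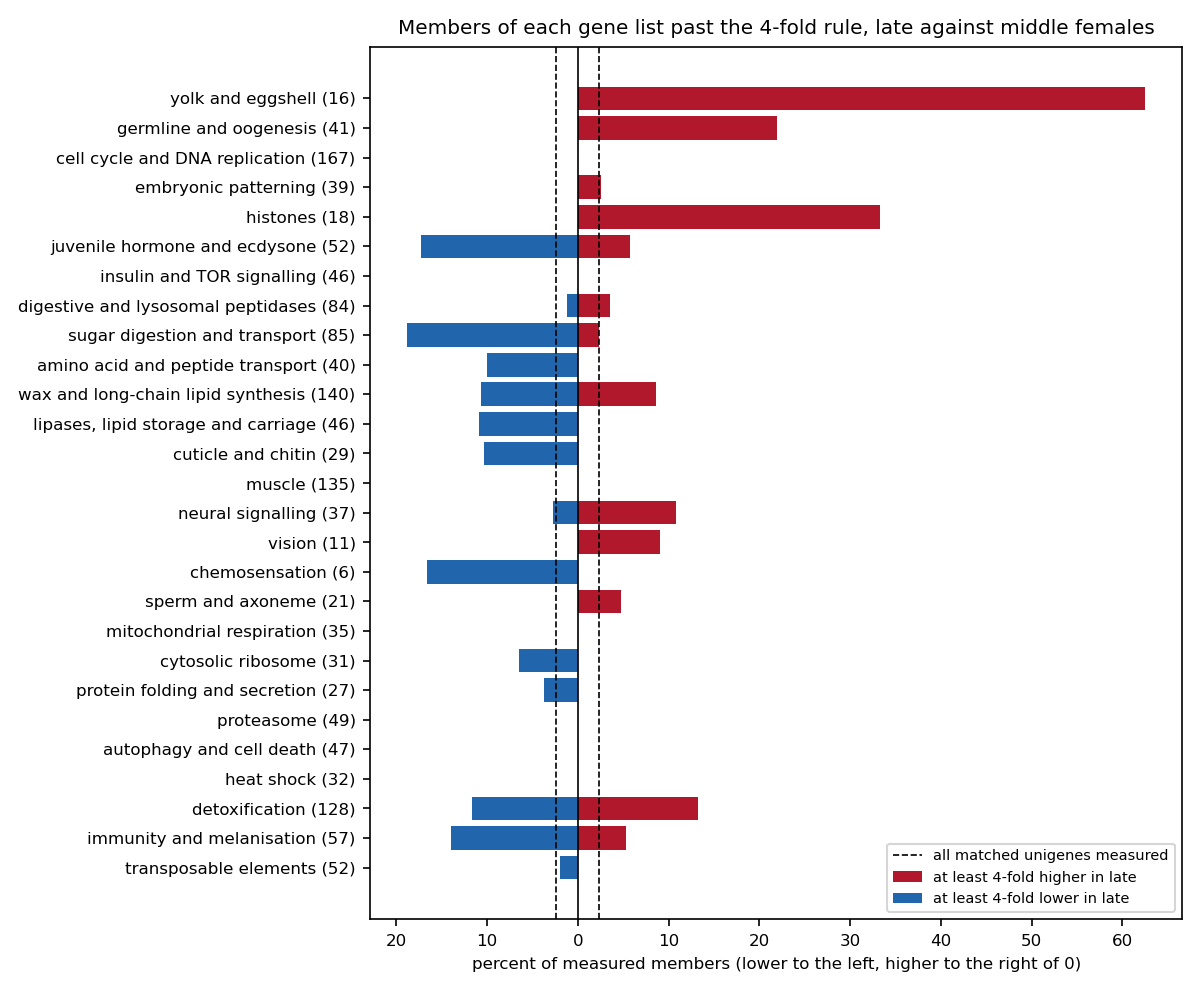
Percent of measured members of each gene list that were at least 4-fold higher (right of 0) or at least 4-fold lower (left of 0) in the late than in the middle library, with the number of measured members in brackets and dashed lines at the shares of all matched unigenes, 2.36% higher and 2.41% lower. Yolk and eggshell (62.5% higher) and histones (33.3% higher) reach farthest to the right, and sugar digestion and transport (18.8% lower) and juvenile hormone and ecdysone (17.3% lower) reach farthest to the left.

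The vitellogenin receptor takes up yolk protein at the oocyte surface. Its longest unigene (Unigene157486_FOB, 2469 bases) had 1087 reads in the late library, against 19 in the middle library. Elsewhere it had 2 reads in female first instars, 1 in female second instars, 2 in early adult females, 2 in male first instars, 14 in male second instars and 1 in male adults. The late library was thus the only one above 19 reads. The ratio was 44.8 (28.6 to 74.7), the deposited RPKM was 236 in the late library and 5.27 in the middle library, and reads covered 99.6% of the unigene in the late library, against 33.2% in the middle library. A second receptor unigene (Unigene148888_FOB) had 446 late and 11 middle reads, a ratio of 31.8 (17.6 to 64.1). Over all 12 receptor unigenes, 10 of them measured, the sum was 2435 late and 52 middle reads, and between 2 and 31 in each of the other libraries. The summed ratio was 36.7 (27.9 to 49.3), and the log2 ratios of the 10 measured unigenes ran from 3.34 to 5.54.

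The yolk and eggshell list had 16 measured members, and the 10 called higher were these receptor unigenes. The other 6 were 4 vitellogenin and 2 chorion peroxidase unigenes. When reads were summed per protein match, 7 of 11 members of the list were higher. Vitellogenin had 832 reads in the late library and 296 in the middle library, which is 446 CPM in the late library against 203 CPM in the middle library. In the remaining libraries it stood at 102 CPM in female first instars, 179 CPM in female second instars, 160 CPM in early adult females, 159 CPM in male first instars, 320 CPM in male second instars and 71.2 CPM in male adults. The late library was the highest of the 8 and male second instars came next. The 4 unigene ratios lay between 1.71 and 2.77, under the 4-fold rule. Chorion peroxidase, an enzyme that hardens the eggshell in flies, had 50 late and 70 middle reads over its 4 unigenes.

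Germline and oogenesis transcripts were called in 1 direction. Of 41 measured members of that list, 9 (22.0%) were higher, 0 were lower and 32 were neither, with a median log2 ratio of 0.64. The 9 were 5 bicaudal-C unigenes, 3 ovarian serine protease unigenes and 1 boule unigene. No other protein name in the list had a called member, so the share rests on few genes. When reads were summed per protein match, 6 of 32 were higher and 0 lower. Bicaudal-C, an RNA-binding protein of Drosophila oogenesis, had 396 late and 10 middle reads over 5 unigenes, and no more than 2 reads in any other library. Its summed ratio was 31 (16.7 to 65.2). The ovarian serine proteases had 314 late and 2 middle reads over 3 unigenes, and from 0 to 4 in each of the others, a ratio of 123 (33.8 to 1020). Boule, an RNA-binding protein of germ cells (Unigene145467_FOB), had 90 late and 9 middle reads and 14 to 31 elsewhere. The middle library was the lowest of the 8 for boule at 6.16 CPM, with female first instars close to it at 6.36 CPM.

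Argonaute-2 binds small interfering RNAs and cuts matching transcripts. It was grouped after its values were seen, and 7 of its 9 measured unigenes were higher. The longest (Unigene157273_FOB, 1615 bases) had 297 late and 40 middle reads, a ratio of 5.82 (4.17 to 8.31), and from 0 to 12 reads in each of the other libraries. The remaining 2 unigenes were read in every library and were not called, with 103 late and 104 middle reads in Unigene102122_FOB (ratio 0.776, 0.585 to 1.03) and 57 late and 48 middle reads in Unigene44572_FOB (ratio 0.930, 0.623 to 1.40). PIWI and argonaute 3, which bind the piRNAs that silence transposons in the germline, had 6 measured unigenes, none called. They summed to 439 late and 249 middle reads, a ratio of 1.38 (1.18 to 1.62). The transposable element list had 0 of 52 members higher and 1 lower, a Gap-Pol polyprotein-like unigene at 20 late and 136 middle reads (Unigene156553_FOB).

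Histones were called in the same direction. In the histone list, which holds 18 measured members, 6 (33.3%) were higher and 0 lower, and the median log2 ratio was 1.40. With 5 CPM added 3 of the 18 were higher, and 3 with the interval wholly past 4-fold. The histone list also holds histone H3 methyltransferases, which are enzymes and were not called, such as Unigene116435_FOB at 62 late and 22 middle reads. For histones proper, grouped after their values were seen, 7 of 11 measured unigenes were higher, with a median log2 ratio of 2.62, and the sum was 403 CPM in the late library against 99.3 CPM in the middle library. Histone H2B (Unigene147688_FOB) had 160 late and 5 middle reads and 0 to 8 elsewhere, a ratio of 25.1 (10.5 to 78.3). Histone H4 (Unigene133522_FOB) had 58 late and 4 middle reads, and a histone H1 (Unigene141741_FOB) had 52 late and 3 middle reads and 0 in the other 6 libraries. The variant H2A.V (Unigene55818_FOB) had 21 reads in both, a ratio of 0.78. The cell cycle and DNA replication list had 0 of 167 measured members called and a median log2 ratio of 0.34. Its member with the most reads over the pair, a structural maintenance of chromosomes protein, had 229 late and 155 middle reads (Unigene154096_FOB, ratio 1.16, 0.94 to 1.43). Cyclin-B, which drives entry into mitosis, had 251 late and 56 middle reads (Unigene148260_FOB, ratio 3.51, 2.62 to 4.78), under the rule. In embryonic patterning 1 of 39 members was higher, the gap protein hunchback, at 21 late reads and 1 middle read (Unigene156184_FOB, ratio 16.5, 2.65 to 680.3).

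Some regulators outside the lists were called in this direction. TRIM71, an RNA-binding regulator of developmental timing in worms (Unigene147881_FOB), had 229 late and 2 middle reads and no more than 2 elsewhere, a ratio of 89.7 (24.6 to 745). Proteins with RCC1 repeats and a BTB domain had 7 measured unigenes, grouped after their values were seen, of which 5 were higher. The leading one had 374 late and 11 middle reads and 0 in all the others (Unigene137644_FOB, ratio 26.6, 14.7 to 53.8). A CREB-binding protein unigene, named for a coactivator that acetylates histones, had 91 late and 3 middle reads (Unigene128577_FOB, ratio 23.8, 7.88 to 117), while 3 other unigenes of that name were not called. A Rac GTPase-activating protein had 73 late and 0 middle reads (Unigene136964_FOB, at least 19.1-fold higher), against 2 to 5 in the early female adults and the larvae. It falls under the rule, at a log2 ratio of 1.07, when reads are summed per protein match.

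**Figure D2:**
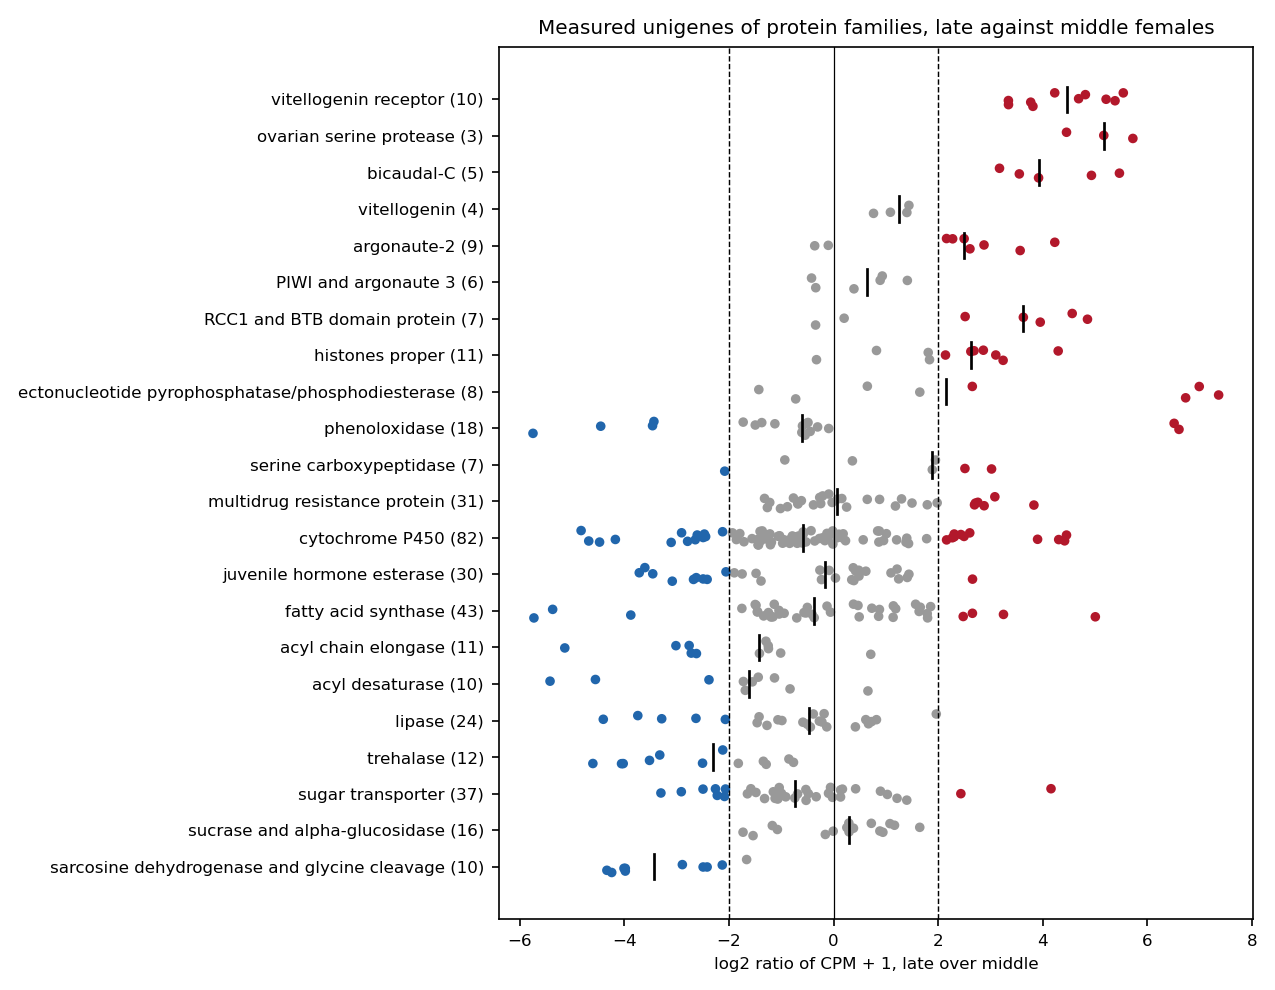
Log2 ratio of late over middle CPM, each with 1 CPM added, for every measured unigene of 22 protein families, with the number of unigenes in brackets, a black bar at the family median, dashed lines at the 4-fold rule, red points called higher and blue points called lower. All 10 vitellogenin receptor points lie right of the rule, and 9 of 10 points for sarcosine dehydrogenase and glycine cleavage lie left of it. Phenoloxidase and fatty acid synthase points lie on both sides.

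Hormone genes were called in both directions. In the juvenile hormone and ecdysone list, 3 of 52 measured members (5.77%) were higher and 9 (17.3%) lower, and the median log2 ratio was -0.02. Juvenile hormone acid O-methyltransferase, which makes the hormone or its direct precursor (Unigene140471_FOB), had 59 late and 4 middle reads, a ratio of 11.6 (4.28 to 43.8). It had 19 reads in female first instars, 2 in female second instars, 2 in early adult females, 2 in male first instars, 7 in male second instars and 11 in male adults. Cytochrome P450 307A1, which acts early in making ecdysteroids (Unigene143994_FOB), had 26 late and 0 middle reads, at least 6.79-fold higher, and 25 reads in female and 29 in male first instars.

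All 9 lower members were matched to juvenile hormone esterases, the enzymes that break the hormone down, or to proteins described as like them. Whether these unigenes encode enzymes that act on the hormone was not tested. Of the 9, the one with the most reads (Unigene157293_FOB) had 40 late and 201 middle reads, 6.42-fold lower (4.55 to 9.25), and 276 in early adult females. Another (Unigene134242_FOB) had 3 late and 45 middle reads, 19.2-fold lower (6.15 to 96.3), with 183 in early adult females. The 4 esterases with the most reads were not called. Among these, Unigene147641_FOB had 385 late and 232 middle reads (ratio 1.3, 1.10 to 1.54). The other 3 were higher in the late library but under the rule, at 453 late and 165 middle reads in Unigene128712_FOB (ratio 2.15, 1.80 to 2.59), 346 late and 116 middle reads in Unigene121712_FOB (ratio 2.34, 1.89 to 2.91) and 237 late and 69 middle reads in Unigene129049_FOB (ratio 2.69, 2.05 to 3.57). With reads summed per protein match, 1 of 27 measured members of the list was lower. The family's 48 unigenes summed to 1185 CPM in the late library and 1209 CPM in the middle library, 1 unigene was higher (Unigene36358_FOB, 26 late and 2 middle reads) and 20 of the 30 measured were neither. None of the 46 measured members of the insulin and TOR list, nutrient signalling genes, was called in either direction.

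Among genes for sugar use, 7 trehalases, 7 sugar transporters and 2 alpha-amylases were lower in the late library, and 2 glucose transporters were higher. The sugar digestion and transport list had 2 of 85 measured members higher (2.35%), 16 lower (18.8%) and a median log2 ratio of -0.59. Trehalase splits trehalose into glucose, and its 32 unigenes summed to 121 CPM in the late library against 718 CPM in the middle library, 5.92-fold lower (5.12 to 6.87). They summed to 546 CPM in female first instars, 1385 CPM in female second instars, 1144 CPM in early adult females, 434 CPM in male first instars, 531 CPM in male second instars and 1342 CPM in male adults. The late library was the lowest of the 8, and the level was lower at each later adult female stage.

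Trehalase unigenes differed among themselves. Unigene42353_FOB had 15 late and 218 middle reads, 18.6-fold lower (11 to 33.7), and Unigene139859_FOB had 0 late and 34 middle reads, at least 14.5-fold lower, after 188 in early adult females. Unigene131021_FOB had 21 late and 29 middle reads and was not called. A facilitated glucose transporter of solute carrier family 2 had 57 late and 214 middle reads (Unigene155976_FOB, 4.79-fold lower, 3.56 to 6.54). Glucose transporter 1 went the other way, with 77 late and 2 middle reads (Unigene29556_FOB, ratio 30.2, 8.07 to 254). Sucrase and alpha-glucosidase unigenes, which digest sap sugar and trim glycans, had 0 of 16 measured members called and summed to 1063 CPM in the late library against 1153 CPM in the middle library.

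Sarcosine dehydrogenase and the glycine cleavage proteins break down sarcosine and glycine in mitochondria and feed one-carbon metabolism. This set, grouped after its values were seen, had 9 of 10 measured unigenes lower and the tenth at 8 late and 23 middle reads. Over 12 unigenes it summed to 33.8 CPM in the late library and 385 CPM in the middle library, 11.4-fold lower (8.78 to 15.1). In the other libraries it ran from 97.3 CPM in female first instars to 911 CPM in male adults, so the late library was the lowest of the 8. The one with the most middle reads, a sarcosine dehydrogenase (Unigene149394_FOB), had 10 late and 148 middle reads, 18.9-fold lower (9.99 to 40.2), and 295 in male adults. In the amino acid and peptide transport list, 4 of 40 members (10%) were lower and 0 higher. One of them, an amino acid transporter, had 6 late and 89 middle reads (Unigene157251_FOB, 18.9-fold lower, 8.36 to 53.0).

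Lipid synthesis genes were called in both directions. Of 140 measured members of the list for wax and long-chain lipids, 12 were higher (8.57%) and 15 lower (10.7%), with a median log2 ratio of -0.09. Desaturases, which put double bonds into fatty acids, had 3 of 10 measured unigenes lower and 0 higher and summed to 179 CPM in the late library against 555 CPM in the middle library. A Z9-desaturase (Unigene154536_FOB) had 5 late and 229 middle reads, 58.5-fold lower (24.7 to 182), with 43 in early adult females and 115 in female second instars. Elongases, which lengthen fatty acids, had 5 of 11 measured unigenes lower, 0 higher, and summed to 103.5 CPM in the late library against 325 CPM in the middle library. An elongase with 0 late and 50 middle reads (Unigene152548_FOB, at least 21.3-fold lower) had 204 in female second instars.

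Fatty acid synthase, which builds the carbon chain, had unigenes on both sides. Of 43 measured, 4 were higher, 3 lower and 36 neither, and the sums were 1599 CPM in the late library and 1922 CPM in the middle library. Unigene139500_FOB had 58 late reads and 0 in all the other libraries, while Unigene150673_FOB had 0 late and 76 middle reads and no more than 5 elsewhere. Fatty acyl-CoA reductase 2, from a class that makes the fatty alcohols of waxes (Unigene146296_FOB), had 156 late and 0 middle reads, at least 40.7-fold higher, and 114 reads in male adults but no more than 5 in the rest. An AMP-dependent CoA ligase, from a class that activates acids for further use (Unigene152699_FOB), had 333 late reads and 1 middle read, a ratio of 261 (46.5 to 10330.0), and 89 in early adult females, 48 in female second instars and 71 in female first instars. The middle library and male adults, at 1 read each, were the lowest for it. Lipases and carriers had 5 of 46 members lower and 0 higher, among them a hormone-sensitive lipase, which releases stored fat, at 36 late and 123 middle reads (Unigene148131_FOB, 4.36-fold lower, 2.99 to 6.51).

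Phenoloxidases, the enzymes of melanin formation, had members far apart in opposite directions. A prophenoloxidase unigene (Unigene50471_FOB) had 1546 late and 11 middle reads, a ratio of 110 (61.4 to 221), and a phenoloxidase III unigene (Unigene136844_FOB) had 1217 late and 9 middle reads, a ratio of 106 (55.6 to 232). Both had no more than 2 reads in any of the other libraries. Against them, Unigene153675_FOB had 17 late and 322 middle reads, 24.2-fold lower (14.9 to 42.0), and at most 1 read outside the pair, and Unigene3628_FOB had 29 late and 260 middle reads, 11.4-fold lower (7.78 to 17.4). Of 18 measured phenoloxidase unigenes, 2 were higher, 4 lower and 12 neither. The family summed to 2203 CPM in the late library and 1786 CPM in the middle library, and to 38 CPM in male adults and at most 546 CPM in the others, so both stages stood above the other 6 libraries. Near-identical family members can share or lose reads in counting.

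The immunity and melanisation list had 3 of 57 measured members higher (5.26%) and 8 lower (14.0%). Besides the phenoloxidases, hemocytin, a clotting protein of insect blood cells, had 72 late and 0 middle reads (Unigene106152_FOB, at least 18.8-fold higher). A serpin matched in Hymenoptera, an inhibitor of serine proteases, had 0 late and 49 middle reads and no more than 1 elsewhere (Unigene113908_FOB, at least 20.9-fold lower). Gram-negative bacteria-binding protein 1, which recognises microbes, had 43 late and 145 middle reads (Unigene149224_FOB, 4.31-fold lower, 3.04 to 6.20). The named unigene whose interval lay farthest below 1 was a serine protease inhibitor-like protein (Unigene117056_FOB). It had 15 late and 797 middle reads, 67.8-fold lower (40.9 to 122), after 99 in female first instars, 343 in female second instars and 749 in early adult females. In males it had 0 reads in first instars, 77 in second instars and 46 in adults.

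**Figure D3:**
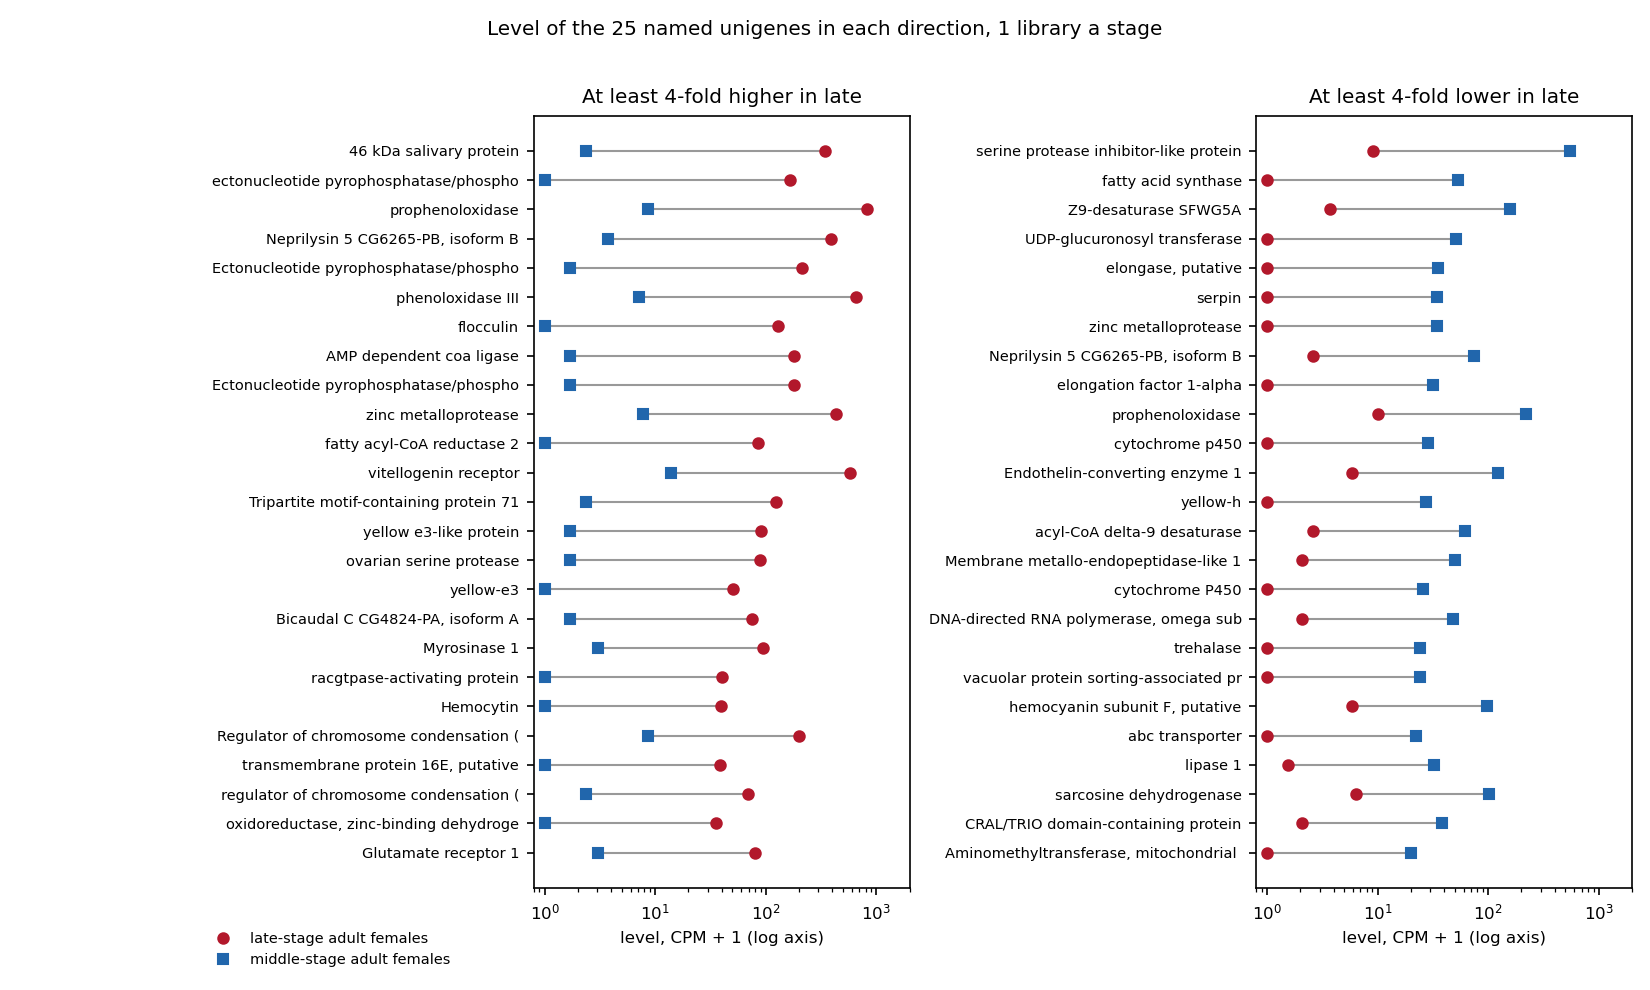
Level in CPM plus 1, on a log axis, of the 25 named unigenes per direction whose ratio interval lies farthest from 1, in late-stage females (red circles) and middle-stage females (blue squares), 1 library each, with a grey line joining them. On the left the prophenoloxidase reaches 829 CPM in the late library against 7.53 CPM in the middle library, and on the right the serine protease inhibitor-like protein stands at 8.05 CPM in the late library against 546 CPM in the middle library.

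Detoxification genes were called in both directions, with 17 of 128 measured members higher (13.3%) and 15 lower (11.7%). Of 82 cytochromes P450, enzymes that oxidise toxins and hormones, 11 were higher, 13 lower and 58 neither. A family 4 P450 had 108 late and 523 middle reads and no more than 15 elsewhere (Unigene147251_FOB, 6.18-fold lower, 5.02 to 7.68). Of 31 measured multidrug resistance proteins, membrane pumps, 6 were higher and 0 lower. The pump unigene with the most late reads among the 6 (Unigene155124_FOB) had 209 late and 21 middle reads, a ratio of 7.80 (4.97 to 12.9), and 371 in male adults. All 6 had more reads in male adults than in the late library.

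Several secreted or surface enzymes outside the lists were among the named genes. Ectonucleotide pyrophosphatase/phosphodiesterases cleave nucleotides outside the cell, and 3 of their unigenes had 398 late reads and 1 middle read (Unigene113281_FOB), 332 late reads and 1 middle read (Unigene109801_FOB), and 305 late and 0 middle reads (Unigene55404_FOB). None of these had more than 1 read in any other library, while the unigenes of the family that were read throughout, such as Unigene95860_FOB with 69 late and 148 middle reads, were not called. A protein matched to a 46 kDa salivary protein of Hemiptera (Unigene133780_FOB) had 645 late and 2 middle reads and 0 to 2 elsewhere, a ratio of 253 (69.7 to 2091). Neprilysins, surface proteases that cut small peptides, had 1 of 11 measured unigenes of their family higher and 3 lower. Both directions included a unigene matched to the same protein, Neprilysin 5, at 731 late and 4 middle reads (Unigene153397_FOB) and at 3 late and 107 middle reads (Unigene151681_FOB).

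Serine carboxypeptidases, lysosomal peptidases, summed to 1524 CPM in the late library and 485 CPM in the middle library, a ratio of 3.14 (2.89 to 3.42), with 2 of 7 measured unigenes higher and 1 lower. CPVL (Unigene140890_FOB) had 863 late and 82 middle reads, after 2 in female first instars, 9 in female second instars and 31 in early adult females, so it was higher at each later female stage. The wider list of digestive and lysosomal peptidases had 3 of 84 members higher (3.57%) and 1 lower (1.19%), near the background. Carbonic anhydrase 6, which hydrates carbon dioxide (Unigene155739_FOB), had 896 late and 104 middle reads, a ratio of 6.75 (5.50 to 8.35), and 208 in early adult females. In the aldehyde dehydrogenase 7 family, whose member antiquitin breaks down lysine, 0 of 4 measured unigenes were called, and the sum was 1157 CPM in the late library and 727 CPM in the middle library, above the 32.3 to 215 CPM of the remaining libraries.

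Further named genes outside the families above also stood apart. A zinc metalloprotease (Unigene145084_FOB) had 809 late and 10 middle reads, a ratio of 63.4 (34.3 to 133), which falls under the rule at a log2 ratio of 1.96 when reads are summed per protein match. Another zinc metalloprotease, matched in Hymenoptera, had 0 late and 49 middle reads and 0 elsewhere (Unigene18874_FOB, at least 20.9-fold lower). Yellow-e3 (Unigene153193_FOB), of the family named for a Drosophila pigment gene, had 92 late and 0 middle reads (at least 24.0-fold higher). Yellow-h (Unigene147356_FOB) went the other way, with 0 late and 39 middle reads, at least 16.6-fold lower, while all 13 yellow unigenes together summed to 495 CPM in the late library against 272 CPM in the middle library. A CRAL/TRIO protein, from a family that carries fat-soluble molecules (Unigene155259_FOB), had 204 late and 1233 middle reads, 7.72-fold lower (6.65 to 8.99), where the middle library was the highest of the 8. An odorant-binding protein (Unigene143110_FOB) had 7 late and 27 middle reads, 4.92-fold lower, and 358 in early adult females, so both later stages were low for it.

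Lists of muscle and cell upkeep had no called members. In muscle 0 of 135 measured members were called, in mitochondrial respiration 0 of 35, in the proteasome 0 of 49, in autophagy and cell death 0 of 47 and in heat shock 0 of 32. The abundant ribosomal protein L37 had 882 late and 695 middle reads, a ratio of 0.99 (0.90 to 1.10). The cuticle and chitin list had 0 of 29 members higher and 3 lower (10.3%), with a median log2 ratio of -0.58, and 0 lower with 5 CPM added. The 3 were a laccase, an oxidase of cuticle hardening, at 5 late and 26 middle reads (Unigene36930_FOB), an acidic mammalian chitinase and an adult cuticular protein. Neural signalling had 4 of 37 members higher (10.8%), or 1 with 5 CPM added, among them glutamate receptor 1 at 146 late and 3 middle reads (Unigene25519_FOB, ratio 38.1, 12.8 to 187), and 1 lower, a neuroligin of synapses at 3 late and 20 middle reads (Unigene153441_FOB). The other 3 higher members, parts of nerve signalling, had 24 to 33 late and 1 to 4 middle reads. In the remaining lists 1 of 11 vision members was higher, 1 of 21 sperm and axoneme members was higher, 1 of 27 protein folding members was lower, and 0 of 2 sex determination members were called. Of 31 cytosolic ribosome members 2 were lower. With no minimum count 28 of 152 ribosome members were lower, against 3361 of 107055 over all unigenes in that setting.

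A protein match, which the rule did not use, was present for 34.6% of the unigenes higher in the late library and 30.7% of those lower, against 59.2% of unigenes that were neither. The median length differed little, at 357 bases for those higher and 351 bases for those lower and for those that were neither. By the rule's own counts, the 1084 higher unigenes held 6.74% of late reads and 0.503% of middle reads, and the 1245 lower ones 0.647% of late reads and 7.76% of middle reads. Outside the pair, none of the other 6 libraries held a read for 159 of the 1084 higher unigenes and for 8 of the 1245 lower ones. The same held for 17 of the 25521 unigenes that were neither.

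Large differences also lay in unigenes with no protein match. After their values were seen, unigenes with at least 100 CPM in 1 library of the pair and at most 1 read in the other were set apart, 27 of them read in the late library and 36 in the middle library. The 27 held 6508 CPM in the late library and 10.3 CPM in the middle library, and at most 285 CPM elsewhere, and 9 had a protein match. The 36 held 6.44 CPM in the late library and 20790 CPM in the middle library, with 5070 CPM in early adult females and at most 219 CPM in the others, and 1 had a match. The leading unigene of the 36 (Unigene155766_FOB, 977 bases) had 1 late and 4399 middle reads, 5616-fold lower (1007 to 221900.0), with 1757 in early adult females and 49 in male first instars. Among the 27, Unigene52515_FOB had 1586 late reads and 1 middle read, a ratio of 1242 (223 to 49100.0), and outside both sets Unigene110125_FOB had 5141 late and 11 middle reads. The most abundant unigene of either library, also unmatched, was not among them: Unigene22516_FOB had 5757 late and 5503 middle reads, and no more than 417 in any of the rest.

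**Figure D4:**
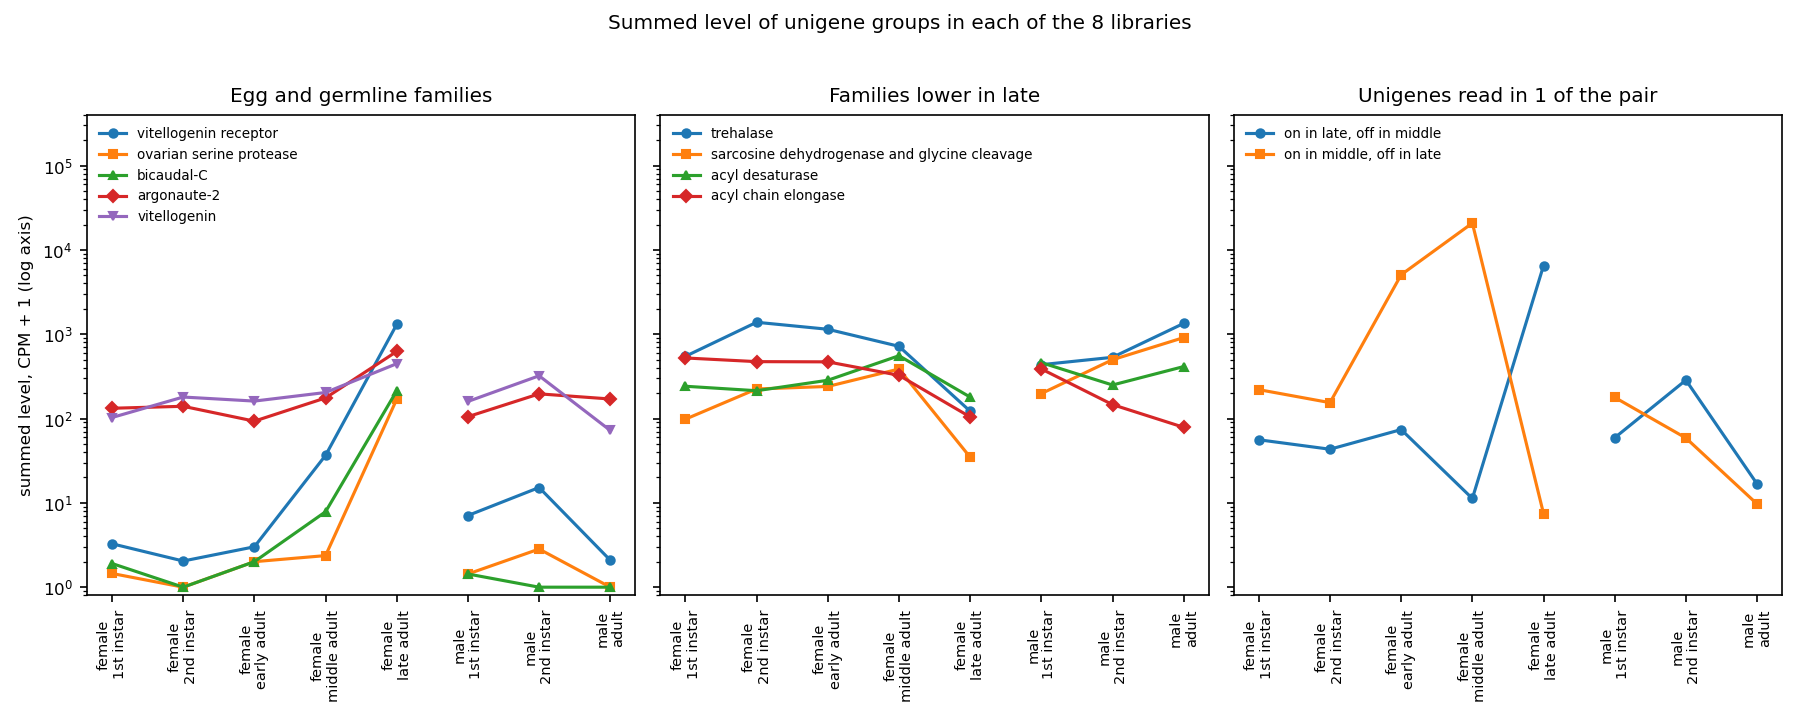
Summed CPM plus 1, on a log axis, of egg and germline families, of families lower in the late library and of the unigenes read in 1 library of the pair, in each of the 8 libraries, with lines joining the stages of a sex in order of development. The vitellogenin receptor reaches 1306 CPM in late females against 35.6 CPM in middle females, and the 36 unigenes read in middle females stand at 6.44 CPM in late females, against 20790 CPM in middle females.

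The step was set beside the other female steps under the same rule. Middle against early adult females had 857 of 30917 measured unigenes higher (2.77%) and 2351 lower (7.60%), and this step shares the middle library with the one described here. Early adult females against second-instar females had 392 of 31975 higher (1.23%) and 38 lower (0.119%). Late against early adult females had 1750 of 33765 higher (5.18%) and 4300 lower (12.7%), and it uses the late library again. For the vitellogenin receptor sum, the levels were 2.01 CPM in early, 35.6 CPM in middle and 1306 CPM in late females.

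Markers of other sources were read as follows. Doublesex, read mainly in males here, had 2 late reads and 1 middle read over 3 unigenes, against 24 in male adults and 76 in male second instars. Axonemal dyneins, motors of cilia and sperm tails, had 9 late and 3 middle reads over 6 unigenes, and no tektin unigene was found. Homeotic and segmentation proteins of embryos summed to 495 CPM in the late library and 389 CPM in the middle library, within the 350 to 607 CPM of the others. Venom proteins, a sign of parasitoid wasps, summed to 92.8 CPM in the late library and 185 CPM in the middle library, with 0 of 3 measured members called, while unigenes matched best in Hymenoptera held 27.0% of matched late reads and 26.0% of matched middle reads. Among all measured unigenes matched in Hymenoptera, 73 were higher, 59 lower and 4054 neither. In the cytosolic ribosome list, 29 of 31 measured members of any match were neither, but 28 members were lower with no minimum count, as given above. Some housekeeping unigenes matched in Hymenoptera were read almost only in the middle library. Ribosomal protein L5 had 0 late and 20 middle reads and at most 1 elsewhere (Unigene146582_FOB), ribosomal protein S7e had 0 late and 27 middle reads and at most 3 elsewhere (Unigene147458_FOB), and a protein disulfide-isomerase had 1 late and 26 middle reads and at most 1 elsewhere (Unigene91358_FOB). Elongation factor 1-alpha had 0 late and 45 middle reads and at most 8 elsewhere (Unigene19210_FOB). By a limit chosen after the values were seen, 31 of the 1245 lower unigenes had no more than 3 reads in each of the other 7 libraries, and 6 of the 11 with a match (54.5%) were matched in Hymenoptera, the serpin and the zinc metalloprotease lower in the late library among them. By the same limit 310 of the 1084 higher unigenes were read almost only in the late library, and 15 of 58 with a match (25.9%) were matched in Hymenoptera, against 26.8% of matched unigenes that were neither. A flocculin unigene with a best match in protists had 237 late reads and 0 in every other library (Unigene156399_FOB, at least 61.9-fold higher), and its source was not tested. The part of these sources in the differences was not tested.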

How the data were processed

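TRIzol was used to extract RNA from washed, homogenised samples, and Illumina reagents to make the libraries, per the labels' protocols. Per the file headers, the authors give the count of reads assigned uniquely to each assembled unigene, RPKM, and the percent of its length covered (coverage). The sources used here name no aligner, assembler, strand setting or read filter. Neither a genome nor any sequence was used. Counts were joined by unigene identifier, and a unigene not listed was taken as 0 reads. CPM is the count over the header total. The deposited RPKM and coverage are quoted for 1 unigene. Depth was 1.86 M late and 1.46 M middle reads (M is 1000000).

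The 4-fold rule, floor and interval are given with the results. The rule was also run on simulated counts that held counting error only and planted folds well past 4-fold. That simulation cannot speak to variation between insects or libraries, or to folds near the rule. Gene lists are word patterns in the match descriptions, 31 in all, of which 30 had a measured member. The bacteria and fungi list had none, and the host plant list had 1, not called. Members, lists and rules were chosen with earlier results of these data known, and protein families and the on-off sets after their values were seen. Named genes were, per direction, the 25 called unigenes with a named protein, 1 per description, whose interval bound nearest 1 was farthest from it, up to 4 called members per list by reads, the most abundant member of a list with none, and the 10 most abundant named unigenes per library. Others named in the text were chosen after their values were seen. Alternatives were run with edgeR 4.0.16 TMM factors, DESeq2 1.42.0 size factors, other added amounts, minimum counts and units of counting (R 4.3.3, Python 3.11.15, pandas 2.3.3, scipy 1.17.1).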

Additional observations from a re-analysis of the deposited data

How the results depend on the processing

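No paired analysis was possible because each stage had 1 library, and for the same reason no replicate could be left out. The main counts were 1084 unigenes higher and 1245 lower in the late library. With TMM factors they were 1252 and 1079, with DESeq2 size factors 1115 and 1217, with 0.5 CPM added 1174 and 1338, and with reads summed per protein match 962 and 1130. They moved by more than 1.5 times with 5 CPM added (568 higher, 643 lower) and with the interval wholly past 4-fold (557 and 630). The number measured there was 27850, as in the main counts. Counts also moved by more than 1.5 times in settings that changed the number measured. They were 2174 and 3361 of 107055 with no minimum count, 266 and 219 of 3877 with at least 100 reads in either library, and 323 and 335 of 14182 with insect matches only. TMM moved the median log2 ratio of all measured unigenes to 0.28, against 0.11 with header totals, and list medians just under 0 turn positive under it: juvenile hormone and ecdysone 0.15, wax and long-chain lipids 0.08, lipases and carriage 0.11, mitochondrial respiration 0.06, ribosome 0.07 and proteasome 0.11. Over the alternatives the yolk and eggshell list had 5 to 11 members higher, germline and oogenesis 4 to 9, histones 1 to 9, sugar digestion and transport 6 to 27 lower, and juvenile hormone and ecdysone 1 to 12 lower. The number measured moved with the setting, so list counts are read against the counts over all unigenes in that setting, given above. At least 100 reads gave 5 of 9 for yolk and eggshell, 4 of 14 for germline and 1 of 1 for histones. No minimum count gave 11 of 20, 9 of 51 and 9 of 37. Sugar digestion and transport had 6 of 17 and 27 of 157 lower in these 2 settings. Of the 50 named unigenes, Unigene151681_FOB (Neprilysin 5) reversed to a log2 ratio of 2.27 when reads were summed per protein match, since that sum adds Unigene153397_FOB. In the same setting 6 others fell under the rule, Unigene145084_FOB (1.96) and Unigene136964_FOB (1.07) among them. The cytosolic ribosome list had 0 to 28 members lower, 28 of them with no minimum count. A count of 0 allows up to 1.61 CPM in the late library and 2.05 CPM in the middle library.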
